A study of Mus musculus with 6 samples.

Results

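The mitochondrial respiratory chain genes described here are the rows of the lung expression table whose symbol marks a nuclear-encoded subunit of complexes I to V, namely the Nduf, Sdh, Uqcr, Cox4 to Cox8 and Atp5 families, with Ndufa4l2 left out. The symbols gave 84 of the 23284 genes in the table. Of these, 35 belong to complex I, 4 to complex II, 8 to complex III, 18 to complex IV and 15 to complex V. The other 4 are not subunits of a complex: Cox7a2l is a factor for supercomplexes, assemblies in which complexes III and IV sit together, and Cox4nb, Atp5s and Atp5sl only share the start of their symbol. Ndufa4, although named for complex I, was counted with complex IV, where its protein is now placed. The 13 subunits that mitochondrial DNA encodes were not analysed here.

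The respiratory chain makes ATP in the inner mitochondrial membrane. Complexes I and II take electrons from NADH and succinate, complex III passes them to cytochrome c, complex IV hands them to oxygen, and the proton gradient built up on the way drives ATP synthase, which is complex V. Most subunits have a single gene in every tissue, but several complex IV subunits have a second gene that is used mainly in heart and skeletal muscle, in brown fat, in testis or, for Cox4i2, in lung.

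Whole lung of C57BL/6 mice aged 6 weeks was sequenced from 3 mice that carry the Fra-2 transgene (Fra-2tg) and from 3 wild-type littermates, in search of genes expressed differently in the carriers. Fra-2 is the AP-1 transcription factor encoded by Fosl2, and the labels used here do not give the promoter of the transgene. Values are the authors' FPKM, fragments per unit of transcript length after scaling for library size, so levels can be set side by side between genes. Each library was 1 mouse. Fosl2 itself had 12.3, 17.4 and 15.8 FPKM in Fra-2tg lungs, against 11.1, 13.9 and 11.2 FPKM in wild-type lungs. These groups overlapped, and the limma adjusted p was 0.158.

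Transcripts of the respiratory chain were modestly and broadly more abundant in Fra-2tg lungs, while 3 complex IV isoforms of heart and muscle were much less abundant. Of the 84 genes, 82 had a mean of at least 0.5 FPKM and were tested with limma on log2(FPKM + 1), with p-values adjusted over all 14855 tested rows and a call at an adjusted p under 0.05. The groups differed upward for 27 genes and downward for 3, and 52 were not called. Over all tested rows, 13.6% were called higher in Fra-2tg and 13% lower. The 27 make up 32.9% of the tested respiratory chain genes. Their median log2 fold change was 0.24 over the 82 genes, beside 0.00 over all tested rows, and 75 of the 82 values were positive. In 49 of the 82 genes every Fra-2tg mouse lay above every wild-type mouse, beside 23.3% of all tested rows, and in 3 every Fra-2tg mouse lay below, beside 22.4%. The size was small: among the 26 called subunits of the complexes, the ratio of group means ran between 1.13 and 1.44. The count of higher calls rested on single libraries. It was 4 without Fra-2tg replicate 1, 6 without Fra-2tg replicate 2 and 39 without Fra-2tg replicate 3, or 4.88%, 7.32% and 47.6% of the 82 genes, beside 7.79%, 9.98% and 11.4% of all rows in the same fits. It was 8 without wild type replicate 1, 14 without wild type replicate 2 and 4 without wild type replicate 3, or 9.76%, 17.1% and 4.88%, beside 10.9%, 11.0% and 7.33% of all rows. The share of higher calls thus lay below that of all rows in 4 of these 6 fits, while the median log2 fold change lay between 0.19 and 0.29 in all 6.

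The count also rested on how libraries were scaled, and the libraries differed in their summed FPKM. Scgb1a1 and Sftpc, secreted proteins of airway and alveolar cells and among the most abundant lung transcripts, were listed at 0 in some libraries, Sftpc in all Fra-2tg libraries and Scgb1a1 in Fra-2tg replicate 2 and wild type replicate 1. After rescaling to equal sums, 1 respiratory chain gene, Cox7b, was called higher and the same 3 heart and muscle isoforms of complex IV lower, where 7.61% and 7.86% of all rows were called higher and lower. The median log2 fold change of the 82 genes was then 0.23, with 75 positive values. That could hardly be otherwise, since this rescaling barely moved the groups against each other. The median over all tested rows was 0.0026 before it and 0.0009 after. The calls were lost, and the direction was not put to a test. After rescaling to equal sums without those 2 genes, 11 were called higher and 4 lower, the fourth being Ndufv1, where 7.73% and 23.1% of all rows were called higher and lower. That rescaling shifted the median of all tested rows to -0.13 on the log2 scale and the median of the respiratory chain genes to 0.08. The number of positive values was then 58 of 82. The median log2 fold change under that rescaling was 0.05 for complex I, 0.00 for complex II, on its negative side, 0.19 for complex III, 0.11 for complex IV and 0.09 for complex V.

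The same mice were low or high across most of the subunits. Fra-2tg replicate 3 was the lowest of its group in 69 of the 75 tested subunits other than the heart and muscle isoforms, and wild type replicate 3 was the lowest of its group in 61. Fra-2tg replicate 2 lay above every wild-type mouse in 73 of the 75 subunits, Fra-2tg replicate 1 in 71 and Fra-2tg replicate 3 in 49. The subunits of a mouse moved together, and the counts above do not stand for that many separate observations. The SD between mice on the log2(FPKM + 1) scale had a median of 0.12 in Fra-2tg and 0.08 in wild type, and it was larger in Fra-2tg for 55 of the 75 subunits.

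Summed over its subunit genes, each of the 5 complexes was higher in every Fra-2tg mouse than in any wild-type mouse. Complex I summed to 4526, 4682 and 3942 FPKM in Fra-2tg lungs, against 3885, 3850 and 3567 FPKM in wild-type lungs. Complex II, the smallest, summed to 385, 387 and 364 FPKM in Fra-2tg lungs, against 336, 346 and 327 FPKM in wild-type lungs. Complex III summed to 1777, 1946 and 1574 FPKM in Fra-2tg lungs, against 1407, 1413 and 1294 FPKM in wild-type lungs. The ratio of the group means was 1.29 for complex III, the highest of the 5, 1.16 for complex I and 1.13 for complex II, the lowest. Complex IV summed to 4279, 4325 and 3694 FPKM in Fra-2tg lungs, against 3601, 3596 and 3193 FPKM in wild-type lungs, with a ratio of 1.18. Complex V summed to 4858, 4915 and 4271 FPKM in Fra-2tg lungs, against 3856, 3941 and 3524 FPKM in wild-type lungs, with a ratio of 1.24. All subunits together held 2.77%, 2.74% and 2.58% of the library sum without Sftpc and Scgb1a1 in Fra-2tg lungs, against 2.53%, 2.53% and 2.42% in wild-type lungs. As shares of the full library sum the groups overlapped, at 2.45%, 2.74% and 2.29% in Fra-2tg and 2.41%, 1.98% and 1.86% in wild type.

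**Figure D1:**
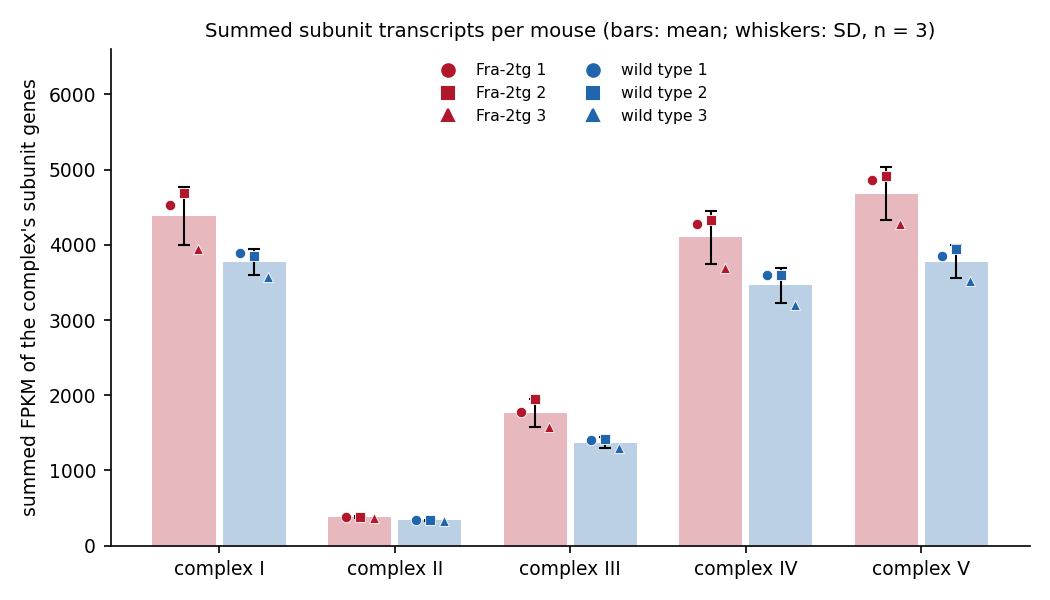
Summed FPKM of the subunit genes of each complex, in each mouse (points), with the mean (bars) and SD (whiskers) of 3 Fra-2tg and 3 wild-type mice. The Fra-2tg points lie above the wild-type points in all 5 complexes, and replicate 3 is the lowest of its group in each.

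The make-up of the chain shifted slightly between the complexes. Complex III held 11.23%, 11.97% and 11.37% of the summed FPKM of the 5 complexes in Fra-2tg lungs, against 10.8%, 10.7% and 10.9% in wild-type lungs. Complex V held 30.7%, 30.2% and 30.8% in Fra-2tg lungs, against 29.5%, 30.0% and 29.6% in wild-type lungs. Complex I held 28.6%, 28.8% and 28.5% in Fra-2tg lungs, against 29.7%, 29.3% and 30.0% in wild-type lungs. The groups did not overlap in these 3 shares, which were larger for III and V and smaller for I in Fra-2tg. They overlapped for complex II, with means of 2.48% in Fra-2tg and 2.65% in wild type, and for complex IV, with means of 26.8% in Fra-2tg and 27.2% in wild type. These shares do not depend on how a library is scaled. They are a description, and no test of a difference between complexes was run.

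In complex I, the NADH dehydrogenase, 8 of 35 subunits (22.9%) rose and none fell, with a median log2 fold change of 0.21. Of all tested rows, 13.6% were called higher. Ndufa1, an accessory subunit of the membrane arm encoded on the X chromosome, had 149, 167 and 143 FPKM in Fra-2tg lungs, against 128, 112 and 101 FPKM in wild-type lungs. It was 1.35-fold higher, with a log2 fold change of 0.43 ± 0.10 (SE) and a limma adjusted p of 0.0243. Ndufa2, an accessory subunit of the matrix arm, had 274, 281 and 214 FPKM in Fra-2tg lungs, against 194, 201 and 187 FPKM in wild-type lungs (1.32-fold, log2 fold change 0.39 ± 0.11, adjusted p = 0.0449). In both genes all Fra-2tg mice lay above all wild-type mice. The most abundant subunit, Ndufa3, had 473, 499 and 415 FPKM in Fra-2tg lungs, against 396, 395 and 359 FPKM in wild-type lungs, and missed the threshold (adjusted p = 0.0770).

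The matrix arm of complex I holds the flavin and iron-sulfur centres that carry the electrons. Among its 7 core subunits 2 (28.6%) rose, with a median log2 fold change of 0.13. Ndufs1, which carries iron-sulfur clusters, had 29.4, 30.8 and 30.0 FPKM in Fra-2tg lungs, against 26.1, 26.5 and 27.0 FPKM in wild-type lungs. The groups did not overlap, and the difference was the smallest of the 27 higher calls, at a log2 fold change of 0.17 ± 0.05 (adjusted p = 0.0405). Ndufv1, which binds the flavin and NADH, had 58.2, 58.5 and 51.7 FPKM in Fra-2tg lungs, against 60.2, 57.9 and 55.5 FPKM in wild-type lungs. These groups overlapped, and Ndufv1 was the only subunit of complex I with a negative log2 fold change, -0.04 ± 0.07 (adjusted p = 0.663). Of the accessory subunits, 3 of 9 (33.3%) rose in the matrix arm, with a median of 0.24. In the membrane arm 3 of 19 (15.8%) rose, near the 13.6% of all tested rows, with a median of 0.25. Besides the genes named above, the higher calls were Ndufv2 in the core, Ndufs4 and Ndufs6 in the matrix arm, and Ndufb4 and Ndufb11 in the membrane arm, with log2 fold changes between 0.27 and 0.33. In 21 of the 35 subunits, or 60%, the groups did not overlap, with Fra-2tg higher, beside 23.3% of all tested rows.

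Complex II, succinate dehydrogenase, is also an enzyme of the tricarboxylic acid cycle. It has 4 subunits, of which 1 (25%) rose, beside 13.6% of all tested rows. Sdhd, an anchor in the membrane, had 101.6, 104.8 and 99.997 FPKM in Fra-2tg lungs, against 81.0, 82.8 and 77.4 FPKM in wild-type lungs. It was 1.27-fold higher without overlap, with a log2 fold change of 0.34 ± 0.05 and an adjusted p of 0.00569. Its partner in the anchor, Sdhc, had 121, 119 and 110.0 FPKM in Fra-2tg lungs, against 100.4, 110.5 and 99.1 FPKM in wild-type lungs, overlapped by a narrow margin and was not called (adjusted p = 0.105). Sdha, the flavoprotein that oxidizes succinate, overlapped between the groups, with 84.1, 79.7 and 81.6 FPKM in Fra-2tg lungs, against 80.9, 81.4 and 81.6 FPKM in wild-type lungs. Its log2 fold change was 0.01 ± 0.05 (adjusted p = 0.919). The iron-sulfur subunit Sdhb was not called either, at 0.12 ± 0.07.

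Complex III, cytochrome bc1, had the highest median log2 fold change of the 5 complexes, 0.35. Of its 8 subunits 4 (50%) rose, beside 13.6% of all tested rows. All 4 were small accessory subunits. Uqcrh, the hinge protein, had 392, 458 and 333 FPKM in Fra-2tg lungs, against 284, 277 and 263 FPKM in wild-type lungs. At 1.44-fold and a log2 fold change of 0.51 ± 0.12 (adjusted p = 0.0232), this was the largest rise of all the respiratory chain genes. Uqcrb, an accessory subunit at the matrix side, had 206, 226 and 207 FPKM in Fra-2tg lungs, against 164, 163 and 166 FPKM in wild-type lungs (log2 fold change 0.37 ± 0.06, adjusted p = 0.00673). Uqcrq had 262, 279 and 228 FPKM in Fra-2tg lungs, against 213, 204 and 175 FPKM in wild-type lungs (log2 fold change 0.37, adjusted p = 0.0438). Uqcr10 had 324, 375 and 291 FPKM in Fra-2tg lungs, against 252, 272 and 244 FPKM in wild-type lungs (log2 fold change 0.36, adjusted p = 0.0463). In all 4 genes each Fra-2tg mouse lay above each wild-type mouse. None of the 3 core subunits passed the threshold, with a median log2 fold change of 0.18. The Rieske iron-sulfur protein Uqcrfs1, a catalytic centre of the complex, had 87.1, 94.6 and 79.0 FPKM in Fra-2tg lungs, against 75.0, 75.1 and 71.9 FPKM in wild-type lungs. These groups did not overlap either, but the adjusted p was 0.0678.

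Complex IV, cytochrome c oxidase, was the only one of the 5 with calls in both directions, 6 higher and 3 lower of 16 tested. These are 37.5% and 18.75%, beside 13.6% and 13% of all tested rows. The 6 were among its 11 ubiquitous subunits, whose median log2 fold change was 0.31. Cox7b, encoded on the X chromosome, had 119, 121 and 107 FPKM in Fra-2tg lungs, against 84.2, 90.5 and 81.6 FPKM in wild-type lungs. It was 1.35-fold higher (log2 fold change 0.43 ± 0.07, adjusted p = 0.00703), and of the 27 higher genes it was the only one called under each of the 16 alternative settings tried. Cox5a, a subunit on the matrix side of the complex, had 216, 231 and 191 FPKM in Fra-2tg lungs, against 172, 163 and 155 FPKM in wild-type lungs (log2 fold change 0.37 ± 0.09, adjusted p = 0.0215). Both genes separated the groups completely. The other higher calls were Cox8a, Cox7a2, Ndufa4 and Cox6c, with log2 fold changes between 0.28 and 0.33. Cox4i1, the largest nuclear-encoded subunit, had 509, 516 and 412 FPKM in Fra-2tg lungs, against 419, 405 and 384 FPKM in wild-type lungs. Its Fra-2tg replicate 3 lay below wild type replicate 1, and it was not called (log2 fold change 0.24 ± 0.11, adjusted p = 0.134).

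The 3 lower calls of complex IV were Cox6a2, Cox7a1 and Cox8b, the isoforms of heart and skeletal muscle. In mouse, Cox7a1 and Cox8b are also abundant in brown fat. All 3 lie on chromosome 7 but far apart (build GRCm38): Cox7a1 at chr7:30184171-30186030, Cox6a2 at chr7:128205435-128206366 and Cox8b at chr7:140898942-140900446. Cox6a2 had 12.1, 12.8 and 13.1 FPKM in Fra-2tg lungs, against 39.0, 31.6 and 38.8 FPKM in wild-type lungs. Cox8b had 4.40, 10.5 and 3.75 FPKM in Fra-2tg lungs, against 22.1, 18.7 and 20.01 FPKM in wild-type lungs. Cox7a1 had 14.0, 10.8 and 11.7 FPKM in Fra-2tg lungs, against 18.8, 15.5 and 21.3 FPKM in wild-type lungs. All Fra-2tg mice lay below all wild-type mice in each of the 3. The ratio of means was 0.348 for Cox6a2, 0.307 for Cox8b and 0.655 for Cox7a1, with log2 fold changes of -1.45 ± 0.09 (adjusted p = 0.000539), -1.67 ± 0.31 (adjusted p = 0.0108) and -0.57 ± 0.13 (adjusted p = 0.0237). Cox6a2 and Cox8b were called under all 16 alternatives and Cox7a1 under 12. Its call was lost without Fra-2tg replicate 2, Fra-2tg replicate 3, wild type replicate 1 or wild type replicate 3 (adjusted p of 0.0610, 0.0669, 0.0617 and 0.0732).

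Set against their ubiquitous partners, the heart and muscle isoforms were minor forms in these lungs and smaller still in Fra-2tg. Cox6a2 made up 2.53%, 2.74% and 3.35% of the summed Cox6a FPKM in Fra-2tg lungs, against 8.06%, 7.06% and 9.39% in wild-type lungs. Its partner Cox6a1 had 466, 455 and 379 FPKM in Fra-2tg lungs, against 445, 416 and 374 FPKM in wild-type lungs, and was not called (adjusted p = 0.668). Cox7a1 made up 6.00%, 4.82% and 5.71% of the Cox7a sum in Fra-2tg lungs, against 10.1%, 8.07% and 11.9% in wild-type lungs. Here the partner Cox7a2 rose, with 219, 213 and 193 FPKM in Fra-2tg lungs, against 168, 176 and 158 FPKM in wild-type lungs (log2 fold change 0.31, adjusted p = 0.0250). Cox8b made up 0.835%, 1.91% and 0.774% of the Cox8 sum in Fra-2tg lungs, against 5.01%, 4.01% and 5.05% in wild-type lungs. Cox8a, with Cox6b1 one of the most abundant subunits of complex IV, had 523, 538 and 481 FPKM in Fra-2tg lungs, against 419, 447 and 376 FPKM in wild-type lungs (log2 fold change 0.31, adjusted p = 0.0457). None of these shares overlapped between the groups.

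**Figure D2:**
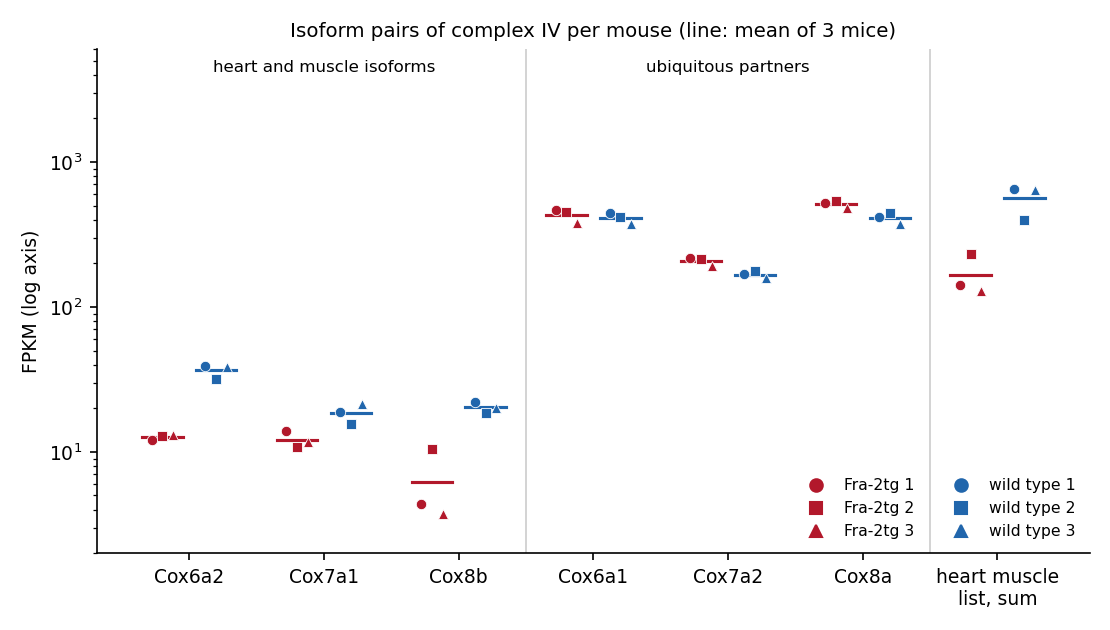
FPKM of the 3 heart and muscle isoforms of complex IV, of their ubiquitous partners and of the summed heart muscle list in each of 3 Fra-2tg and 3 wild-type mice, on a log axis. The isoforms and the heart muscle sum lie lower in Fra-2tg, Cox7a2 and Cox8a lie higher, and Cox6a1 overlaps between the groups.

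Transcripts of heart muscle were lower in Fra-2tg as well. Of 20 listed heart muscle genes 19 were tested, and 17 fell and none rose, with a median log2 fold change of -1.44. Their FPKM summed to 142, 230 and 129 in Fra-2tg lungs, against 652, 396 and 646 in wild-type lungs. Fra-2tg replicate 2 was the highest of its group and wild type replicate 2 the lowest of its group, as for Cox8b. Among the Fra-2tg mice, Cox6a2 was instead highest in replicate 3 and Cox7a1 lowest in replicate 2. Among the wild-type mice, both were lowest in replicate 2. Myh6, the atrial myosin heavy chain, had 4.32, 7.86 and 5.45 FPKM in Fra-2tg lungs, against 30.9, 17.9 and 34.0 FPKM in wild-type lungs. Of 11 listed skeletal muscle markers 4 were tested, and Tnnt3 (log2 fold change -0.96) and Atp2a1 (-0.58) fell while Tnni2 (0.71) rose. Mylpf was not called (-0.13), and the 7 markers not tested averaged under 0.5 FPKM, including Myh4, which was 0 in all 6 libraries. The summed skeletal muscle list overlapped between the groups, at 9.58, 11.3 and 8.53 FPKM in Fra-2tg and 9.61, 9.38 and 9.22 FPKM in wild type. Of the fat list 3 of 4 tested genes fell, and its sum was 4.40, 3.57 and 3.03 FPKM in Fra-2tg lungs, against 13.2, 10.1 and 16.1 FPKM in wild-type lungs. Ucp1, which defines brown fat, reached at most 0.0777 FPKM in any library. In bulk lung, fewer cells of a type and less RNA per cell cannot be told apart.

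Per 100 FPKM of the summed heart muscle list, Cox6a2 had 8.49, 5.56 and 10.2 FPKM in Fra-2tg lungs, against 5.99, 7.98 and 6.00 FPKM in wild-type lungs. On the same scale Cox8b had 3.09, 4.55 and 2.91 FPKM in Fra-2tg lungs, against 3.38, 4.71 and 3.10 FPKM in wild-type lungs. For both genes the groups overlapped on this scale. Cox7a1 did not overlap and lay higher in Fra-2tg, with 9.81, 4.68 and 9.05 FPKM per 100 FPKM, against 2.88, 3.91 and 3.29 in wild type. The part of heart muscle RNA in the 3 lower calls was not tested.

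Isoforms of other tissues behaved differently. Cox4i2, the lung isoform of subunit 4, which is known to respond to low oxygen, had 187, 153 and 130 FPKM in Fra-2tg lungs, against 135, 143 and 139 FPKM in wild-type lungs. The Fra-2tg values ran both above and below the wild-type ones, and it was not called (adjusted p = 0.408). It made up 26.8%, 22.8% and 23.9% of the Cox4i sum in Fra-2tg lungs, against 24.3%, 26.1% and 26.5% in wild-type lungs, which overlapped. The testis isoform Cox6b2 was present in lung at 46.8, 51.3 and 41.8 FPKM in Fra-2tg, against 46.0, 50.5 and 39.98 FPKM in wild type (adjusted p = 0.831). Its partner Cox6b1 had 540.3, 546 and 438 FPKM in Fra-2tg lungs, against 439, 451 and 366 FPKM in wild-type lungs, and was not called (adjusted p = 0.143). The share of Cox6b2 in their sum was 7.98%, 8.59% and 8.71% in Fra-2tg, against 9.48%, 10.1% and 9.86% in wild type, without overlap. The remaining 2 testis isoforms were not tested, since Cox8c was at 0 in all 6 libraries and Cox7b2 at 0 in all but Fra-2tg replicate 2, which had 0.134 FPKM.

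In complex V, the ATP synthase, 7 of 15 subunits (46.7%) rose and none fell, beside 13.6% of all tested rows called higher. The median log2 fold change was 0.25. In 12 of the 15, or 80%, the groups did not overlap, with Fra-2tg higher, beside 23.3% of all tested rows. All 3 small accessory subunits of the membrane part rose. Atp5j2 had 284, 303 and 231 FPKM in Fra-2tg lungs, against 196, 195 and 184 FPKM in wild-type lungs (1.42-fold, log2 fold change 0.50 ± 0.11, adjusted p = 0.0173). Atp5l had 459, 493 and 433 FPKM in Fra-2tg lungs, against 367, 373 and 335 FPKM in wild-type lungs (log2 fold change 0.36 ± 0.08, adjusted p = 0.0201). Atp5k had 512, 514 and 413 FPKM in Fra-2tg lungs, against 382, 381 and 353 FPKM in wild-type lungs (log2 fold change 0.36 ± 0.10, adjusted p = 0.0457). Atp5k and Atp5l encode subunits e and g, which are known for holding ATP synthase in the dimers that shape the inner membrane. RefSeq's table names several pseudogenes for Atp5k and Atp5l, and the labels do not say how fragments shared with such copies were split.

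The catalytic head of complex V, F1, had 2 rises among its 5 subunits. Atp5e, the epsilon subunit of the central stalk and the most abundant of all the respiratory chain genes, had 727, 739 and 599.8 FPKM in Fra-2tg lungs, against 504, 544 and 454 FPKM in wild-type lungs. It was 1.38-fold higher (log2 fold change 0.46 ± 0.12, adjusted p = 0.0289). Atp5c1, the gamma subunit that turns inside the head, had 171, 171 and 163 FPKM in Fra-2tg lungs, against 130.0, 135 and 131 FPKM in wild-type lungs. Its 1.28-fold difference had the smallest adjusted p of the higher calls, 0.00523 (log2 fold change 0.35 ± 0.05). The beta subunit Atp5b, which holds the catalytic sites, had 403, 396 and 385 FPKM in Fra-2tg lungs, against 351, 356 and 333 FPKM in wild-type lungs, without overlap but short of the threshold (log2 fold change 0.19 ± 0.06, adjusted p = 0.0765). In the peripheral stalk, which holds the head still, only Atp5f1 of 4 subunits was called, at 0.22.

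Subunit c, which forms the rotating ring, is made by 3 genes whose mature proteins are the same. Atp5g2 had 459.9, 454 and 396 FPKM in Fra-2tg lungs, against 333, 358 and 281 FPKM in wild-type lungs, and rose 1.35-fold (log2 fold change 0.43 ± 0.11, adjusted p = 0.0322). Atp5g1 had 119, 115 and 104 FPKM in Fra-2tg lungs, against 104, 102 and 89.0 FPKM in wild-type lungs (adjusted p = 0.127). Atp5g3 had 303, 319 and 275 FPKM in Fra-2tg lungs, against 266, 261 and 229 FPKM in wild-type lungs (adjusted p = 0.0878). All 3 genes separated the groups, although Atp5g2 alone was called. Atp5g2 made up 52.1%, 51.2% and 51.1% of the summed FPKM of the 3 genes in Fra-2tg lungs, against 47.4%, 49.7% and 46.9% in wild-type lungs, again without overlap.

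Of the 4 genes outside the complexes, the supercomplex factor Cox7a2l rose, with 242, 263 and 228 FPKM in Fra-2tg lungs, against 209, 205 and 197 FPKM in wild-type lungs (log2 fold change 0.26 ± 0.07, adjusted p = 0.0405). Cox4nb, Atp5s and Atp5sl had log2 fold changes between -0.12 and -0.04, and none was called.

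**Figure D3:**
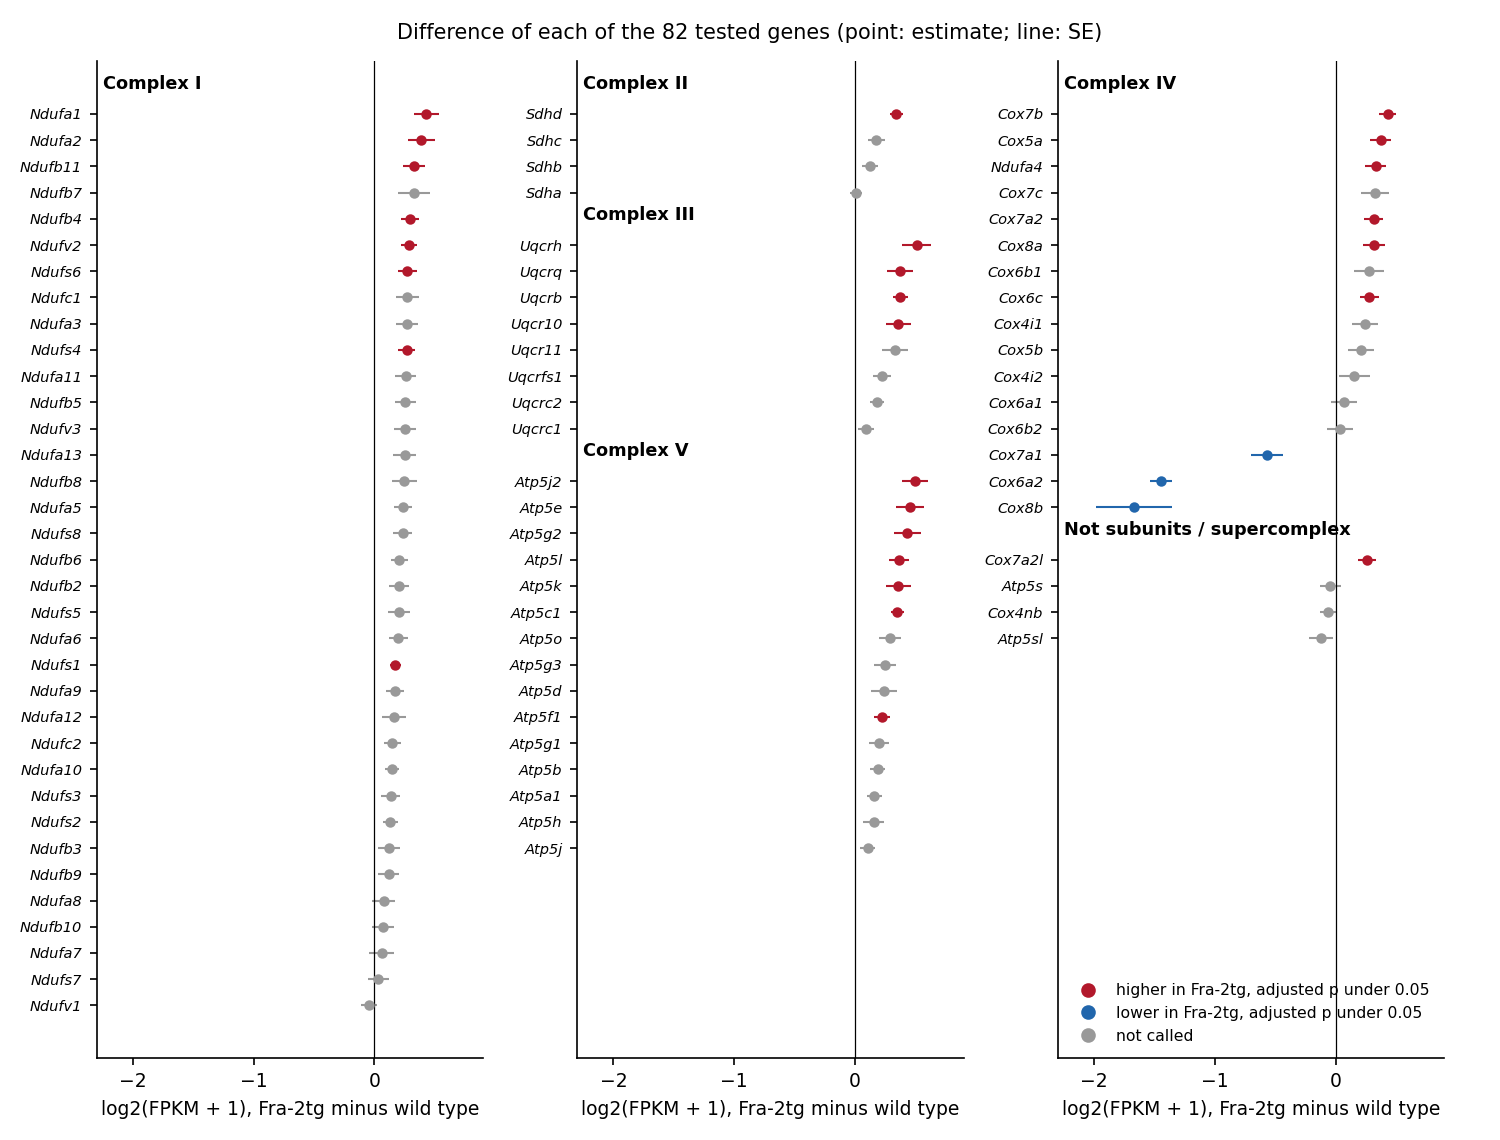
Difference in log2(FPKM + 1), Fra-2tg minus wild type, with its SE for the 82 tested genes by complex. Red marks the 27 genes called higher, blue the 3 called lower and grey the 52 not called, and all values of complexes II, III and V lie above 0.

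The symbols miss 7 known subunits or close partners, of which 5 had a row. Of these, 3 rose: Atpif1, the inhibitor of ATP synthase, at a log2 fold change of 0.50, 2010107E04Rik at 0.47 and Usmg5 at 0.35. Cyc1, the cytochrome c1 of complex III, reached 0.18 (adjusted p = 0.0795), and Ndufab1, the acyl carrier of complex I, 0.08 (adjusted p = 0.496).

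Genes that build or feed the chain were counted beside the 13.6% of all tested rows called higher, and no difference between these lists and the subunits was tested. Of 14 assembly factors of complex I none was called, with a median log2 fold change of 0.01, and of 33 assembly factors of complexes II to V 4, or 12.1%, rose and 1, Surf1, fell, with a median of 0.08. The tricarboxylic acid cycle and pyruvate dehydrogenase had 1 rise among 18 genes, that of citrate synthase (Cs, log2 fold change 0.21), and a median of 0.09. Mitochondrial fatty acid oxidation had 2 rises, Acadl and Acads, and 2 falls among 14 genes, with a median of -0.03. The falls included Cpt1b, the muscle form of the carnitine transferase, with 1.06, 0.866 and 0.825 FPKM in Fra-2tg lungs, against 1.87, 1.94 and 2.09 FPKM in wild-type lungs. Of 9 electron carriers and uncoupling proteins 2 rose, namely cytochrome c (Cycs, 0.32) and the ADP/ATP carrier Slc25a5 (0.27). Slc25a4, the carrier form best known from heart and muscle, was not called (-0.07, adjusted p = 0.491). With equal library sums these 5 lists together held 1 higher call, among the assembly factors of complexes II to V, beside 1 among the 82 respiratory chain genes. Of all rows, 7.61% were called higher in that fit.

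Among 15 tested regulators of mitochondrial biogenesis and of mitochondrial DNA, 2 rose and 2 fell, or 13.3% in each direction, near the 13.6% and 13% of all tested rows. Gabpb1, a subunit of the factor NRF2, had a log2 fold change of 0.31 (adjusted p = 0.00986), and Pprc1, a coactivator, 0.25 (adjusted p = 0.0243). The falls were the subunits of the DNA polymerase of mitochondria, Polg2 at -0.40 and Polg at -0.18. With equal library sums none of the 15 was called, where 7.61% and 7.86% of all rows were called higher and lower. With equal sums without Sftpc and Scgb1a1 none was higher and 3 were lower, where the shares of all rows were 7.73% and 23.1%. The calls of Gabpb1 and Pprc1 were thus lost under both scalings. Nrf1 was not called, with 10.9, 10.5 and 10.7 FPKM in Fra-2tg lungs, against 11.8, 12.1 and 11.9 FPKM in wild-type lungs (adjusted p = 0.0896). The coactivator Ppargc1a was not called either, at 0.23 (adjusted p = 0.113), nor was Tfam, which packs and transcribes mitochondrial DNA, at -0.03.

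In the main fit, other sets of abundant housekeeping transcripts had more higher than lower calls, as the subunits did. Of all tested rows, 13.6% were called higher and 13% lower in that fit. Cytosolic ribosomal proteins had 30 rises and no fall among 83 genes, with a median log2 fold change of 0.32. Proteasome subunits had 14 rises among 37 and a median of 0.20, mitochondrial import had 5 among 17 and a median of 0.22, and mitochondrial ribosomal proteins had 14 among 76 and a median of 0.16, all with no fall. The median of the respiratory chain genes, 0.24, lay within the range of these sets. With equal library sums these sets had 2, 1, 0 and 1 rises and no fall, where 7.61% of all rows were called higher. Their medians were then 0.32, 0.20, 0.22 and 0.15. With equal sums without Sftpc and Scgb1a1 they had 17, 2, 2 and 2 rises, with 1 fall among cytosolic and 4 among mitochondrial ribosomal proteins. Mitochondrial ribosomal proteins thus had more falls than rises there. Of all rows, 7.73% were called higher and 23.1% lower in that fit. Under that scaling, which shifts the median of all rows to -0.13, their medians were 0.17, 0.05, 0.07 and 0.01. All of these comparisons use the same 6 mice.

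**Figure D4:**
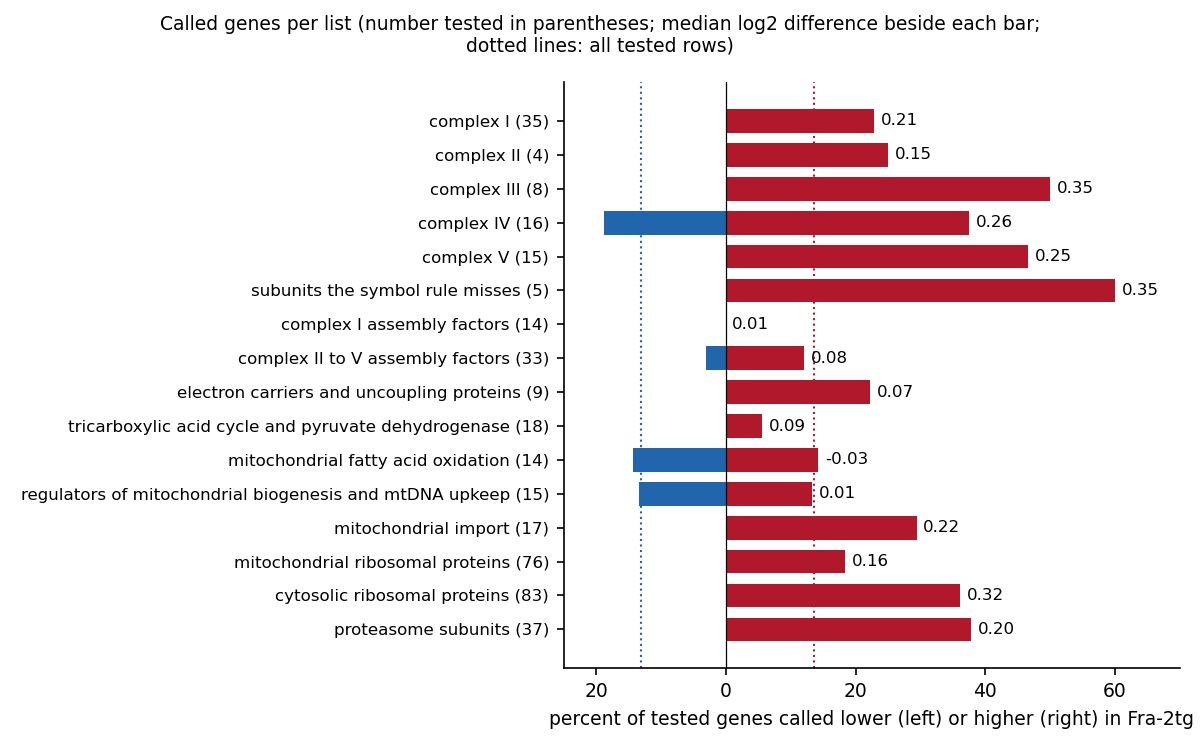
Percent of tested genes called higher (right) or lower (left) in Fra-2tg for the 5 complexes and for other gene lists, with the number tested in parentheses and the median log2 difference beside each bar. Dotted lines mark 13.6% higher and 13% lower over all tested rows, and complex I assembly factors have no call.

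Subunits with a shorter listed transcript length had larger differences. The length is the median over a gene's annotated coding transcripts, and the form used in lung may be shorter or longer. The 75 subunits other than the heart and muscle isoforms had a median transcript length of 651 bases, against 2133 bases for all tested rows with a length. The 11 subunits up to 500 bases had a median log2 fold change of 0.33, the 29 subunits over 500 and up to 700 bases 0.26, the 18 over 700 and up to 1000 bases 0.24, and the 12 over 1000 and up to 1500 bases 0.18. The 3 subunits over 1500 and up to 2500 bases had a median of 0.19, and the 2 longer ones 0.18, so the medians did not go down further. These few genes include Ndufb2 at 2413 bases and Atp5g1 at 2675.5, while Ndufs1 was listed at 651 and Uqcrc1 at 533. The placing of single genes in a class is therefore uncertain. Among the other tested rows the median went down with length too, but over a smaller range, 0.07 up to 500 bases and -0.04 over 4000 bases. Across the 75 subunits log2 length and log2 fold change had a Pearson correlation of -0.37 and a Spearman correlation of -0.39. Across the other rows these were -0.07 and -0.11. The subunits share libraries and are not independent points, so these values are a description. In every length class that held subunits, their median lay above that of the other rows of that class. The part of length in the differences between complexes was not tested.

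**Figure D5:**
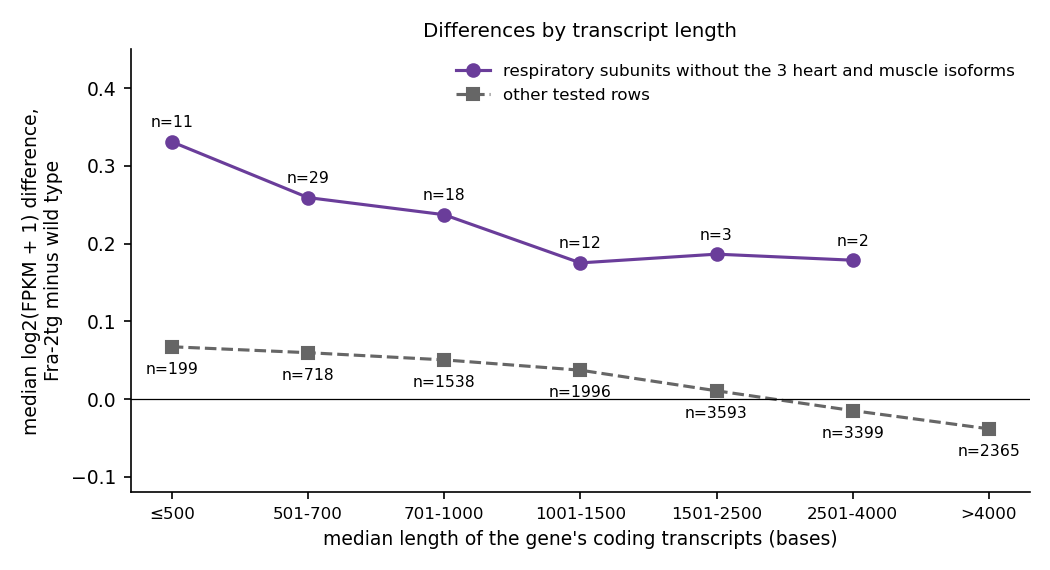
Median difference in log2(FPKM + 1), Fra-2tg minus wild type, by transcript length class for the 75 tested respiratory subunits without the heart and muscle isoforms and for the other tested rows, with the number of genes in each class. The line of the other rows goes down with length, while that of the subunits goes down to 0.18 in the class over 1000 and up to 1500 bases and stays near it in the 2 longer classes, which hold 3 and 2 subunits.

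Markers of several lung cell types differed between the groups as well, beside 13.6% of all tested rows called higher and 13% lower. Macrophage and monocyte markers had 7 rises among 8 genes, and their FPKM summed to 476, 480.3 and 447 in Fra-2tg lungs, against 247, 241 and 174 in wild-type lungs. Alveolar macrophage markers had 5 rises among 8, with sums of 1969, 4326 and 3056 FPKM in Fra-2tg, against 509.6, 983 and 511 FPKM in wild type. Alveolar type 2 markers had 6 rises among 8, with sums of 8459, 9239 and 8519 FPKM in Fra-2tg, against 4970.3, 6760 and 5436 FPKM in wild type. All 4 B cell markers, 3 of 4 neutrophil markers and 4 of 8 alveolar type 1 markers fell, while 1 alveolar type 1 marker, Aqp5, rose (log2 fold change 0.36). Club cell markers, a list that did not hold Scgb1a1, had 2 falls among 5 genes. Endothelial markers had 2 rises and 3 falls among 8, and smooth muscle and pericyte markers 2 rises and 2 falls among 10. Fibroblast markers had 2 rises and 3 falls among 6. No call was made among 8 ciliated cell and 4 tested red cell markers. The part of cell composition in the respiratory chain differences was not tested.

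NRF1 is a transcription factor known for binding promoters of nuclear respiratory genes, and the members that rose together were therefore read for its motif. RefSeq's promoter table (GRCm38.p6) held windows for 69 of the 84 genes, and the 250 bases before each start were searched on both strands. The NRF1 motif GCGCANGCG, which can overlap its own copy on the other strand, was found in 15 of 71 windows of subunits, or 21.1%, and in 7 of 23 windows of the genes called higher, or 30.4%. Of all 32851 windows, 5.16% held it. It also lay in windows of genes that were not called, among them Sdha and Cox6a1 with 3 matches each. The motif CCGGAAGT of GABPA, the DNA-binding subunit of NRF2, was found in 3 of the 71 windows, or 4.23%, against 2.88% of all windows. For the motifs TCAAGGTCA of oestrogen-related receptors and TATAAA of the TATA box the shares were 1.41% and 9.86% of subunit windows, against 0.387% and 12.4% of all windows. The 2 windows of genes called lower, Cox7a1 and Cox8b, held none of these letters, nor those of the muscle factor MEF2, which 0.508% of all windows held. A match is a description of the letters and not a bound site.

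The matches nearest to the start in the genes called higher are printed 5′ to 3′ on the strand of the gene, with up to 10 bases on each side, and capitals mark the NRF1 motif or its reverse complement and, in Uqcrh, the reverse complement of the GABPA motif.
Uqcrh: agtatgccgcACTTCCGGcca
Atp5g2: gctccggccgCGCATGCGCagagccttcc
Atp5l: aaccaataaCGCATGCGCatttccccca
Atp5k: ttcactgcggCGCATGCGCctttctggct
Atp5c1: ctgagctcccGCGCACGCGcactgagt
Sdhd: tcgctggggtGCGCACGCGcggtggcagc
Ndufb4: cctcatatccGCGCAGGCGcagatgtgcg
Ndufs6: gactgctgtgCGCCTGCGCcggcac
They lie at chr4:116075071-116075091 for Uqcrh, chr15:102671070-102671098 for Atp5g2, chr9:44920965-44920992 for Atp5l, chr5:108434430-108434458 for Atp5k, chr2:10080433-10080459 for Atp5c1, chr9:50603910-50603938 for Sdhd, chr16:37654372-37654400 for Ndufb4 and chr13:73328483-73328507 for Ndufs6, all on the minus strand of GRCm38.p6. The capitals begin 11 bases before the start in Uqcrh, 15 in Ndufs6, 17 in Atp5c1, 22 in Ndufb4, 41 in Atp5g2, 49 in Atp5k, 79 in Sdhd and 241 in Atp5l. In Atp5g2 and Atp5k the motif also matches on the strand of the gene 1 base further from the start, at 42 and 50 bases. Ndufb4 held 3 matches, at 22, 79 and 191 bases. The letters printed for Sdhd also lie inside the neighbouring gene Timm8b, on the plus strand at chr9:50603901-50605320. Among the genes called higher, Uqcrh alone held a GABPA match, and its window held no NRF1 match.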

How the data were processed

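Poly(A) RNA of whole lung was sequenced with a strand-specific kit, per the labels' protocols. The submitters' processing notes name Cufflinks 2.2.1, TopHat2 2.0.10, SAMtools 0.1.19, Bowtie 1.0.0 and FastQC with mouse build GRCm38 (mm10), without roles or settings. The table deposited by the authors holds FPKM for 23284 symbols in 6 columns, 1 per mouse. Read numbers behind these values are unknown, so no counting intervals are given. Values in steps at low FPKM were too few to recover reads.

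Differences were tested with limma 3.58.1 in R 4.3.3, two-sided, with a variance trend, on log2(FPKM + 1) over rows with a mean of at least 0.5 FPKM. P-values were adjusted by Benjamini-Hochberg over all 14855 tested rows. Log2 fold changes on this scale understate changes of low genes. The procedure was tested on simulated data with noise drawn separately for each gene. The planted changes were larger than those of the respiratory chain genes called higher. Genes that move together within a mouse, as the subunits did here, were not simulated. Transcript lengths are medians over a gene's coding transcripts in GENCODE vM21, and loci and promoters come from RefSeq (GRCm38.p6). Of the 84 genes, 6 overlap exons of another gene on their strand and 9 have named pseudogenes.

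The respiratory chain genes, the other lists and the tests were chosen with earlier results of these data known. Respiratory chain genes given with a value in every mouse are the 16 largest called changes, the most abundant subunit of each complex, 6 catalytic subunits and both genes of each isoform pair. Further genes given by mouse include Fosl2, Myh6, Cpt1b and Nrf1. Timm8b and Cox4nb are given as neighbours of Sdhd and Cox4i1, pairs chosen after their values were seen. Sdhd, Atp5c1 and Cox7a2l were added after their values were seen. Nothing in the labels says that replicates share a litter. Alternatives were other pseudocounts, filters and scalings, a replicate block, limma without trend or with robust moderation, and each library left out.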

Additional observations from a re-analysis of the deposited data

How the results depend on the processing

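With 27 genes called higher and 3 lower, the lower calls ranged from 2 to 3 and the higher ones from 4 to 39 when each library was left out in turn. Over all rows the same settings gave 1088 to 1695 higher and 1141 to 1709 lower, beside 2027 and 1936. Rescaling to equal library sums left 1 respiratory chain gene higher and a median log2 fold change of 0.23, with 1132 and 1169 of all rows called higher and lower. Rescaling to equal sums without Sftpc and Scgb1a1 left 11 higher, with 1148 and 3438 of all rows, and a median log2 fold change of 0.083 beside 0.24. By construction this lowers Fra-2tg values relative to wild-type values, since these sums were 537215 to 593094 in Fra-2tg and 492782 to 518906 in wild type. Pseudocounts of 0.1 and 0.01, filters at 0 and 5 FPKM, median-ratio scaling, no trend and robust moderation gave 22 to 29 higher and 3 lower. With the replicate number as a block, 39 were higher and 3 lower. Over all tested rows, deviations of same-numbered mice correlated at -0.05, 0.01 and 0.16. Among the 75 subunits, replicate 3 was the lowest of its group in 69 in Fra-2tg and 61 in wild type. With 3 mice a group, these values cannot settle whether same-numbered mice share more than a number. The median stayed positive in all settings, but many of them could not change it. A replicate block, no trend and robust moderation leave every log2 fold change as it is. Other pseudocounts, filters, median-ratio scaling and equal library sums kept the median between 0.23 and 0.24. Equal sums without Sftpc and Scgb1a1 moved it most. Of the 30 calls, 3 held under each of the 16 alternatives, Cox6a2, Cox8b and Cox7b. Read numbers are unknown, and 3 mice a group limit the precision.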

Other observations

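Some subunit genes share a promoter region with a neighbour on the other strand, and the values of both neighbours can be read side by side. These pairs were chosen after their values were seen. Sdhd, the membrane anchor of complex II, and Timm8b, a chaperone of mitochondrial protein import, lie with 51 bases between them on chromosome 9 (GRCm38.p6) and point away from each other. Timm8b had 72.1, 80.9 and 71.4 FPKM in Fra-2tg lungs, against 58.4, 57.9 and 54.4 FPKM in wild-type lungs. It rose without overlap (log2 fold change 0.39 ± 0.07, limma adjusted p = 0.00808), beside 0.34 ± 0.05 for Sdhd. Cox4i1 of complex IV and Cox4nb, now named Emc8 and part of a membrane protein insertion complex of the endoplasmic reticulum, lie with 137 bases between them on chromosome 8 in the same arrangement. Cox4nb had 9.45, 8.98 and 9.07 FPKM in Fra-2tg lungs, against 8.81, 10.4 and 9.68 FPKM in wild-type lungs. Neither gene of this pair was called, with log2 fold changes of -0.06 ± 0.07 for Cox4nb and 0.24 ± 0.11 for Cox4i1. Exons of Cox4nb overlap those of Gm27021 on the same strand, and how their fragments were divided is unknown.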
